A study of Mus musculus with 33 samples.

Results

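The cells described here are the L-type endocrine cells of the mouse large bowel, which make the hormones encoded by Gcg, Pyy and Insl5. A cell was counted as endocrine when it held at least 1 unique molecular identifier (UMI, a tag that marks 1 captured RNA molecule) in 4 or more of 11 endocrine genes, Chga, Chgb, Neurod1, Fev, Cpe, Pcsk1, Scg3, Rfx6, Isl1, Cryba2 and Pax6. It was counted as L-type when its UMIs of Gcg, Pyy and Insl5 together exceeded those of Tph1 and Tac1, genes of the serotonin-making enterochromaffin cells. The rule found 83 cells among 23762, or 0.349% (95% exact binomial interval 0.278 to 0.433%, which covers counting error only). They were 29.1% of the 285 endocrine cells, and the other 202 are called other endocrine cells below.

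L cells are sensors set singly among the absorptive and goblet cells of the gut lining. Nutrients, bile acids and products of bacteria that reach their surface trigger the release of peptides stored in granules. Gcg encodes proglucagon, which the convertase Pcsk1 cuts into the incretin GLP-1 and related peptides, Pyy encodes peptide YY, which slows gut transit and reduces appetite, and Insl5 encodes a relaxin-family peptide of the large bowel.

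The series profiled single cells of crypts, taken from cecum, proximal and distal colon in 11 female wild-type C57BL6/J mice, 5 young (8 to 20 weeks) and 6 old (90 to 108 weeks), as 33 libraries. Crypts were dissociated with TrypLE, and EpCAM-positive cells were sorted before droplet capture, so the shares below are shares of sorted epithelial cells. No mouse was treated, and 1 mouse gave 3 libraries, 1 per compartment. The mice fell into a set with shallow cells (Young 4, Young 5, Old 4, Old 5 and Old 6, with median depths of 3982 to 10039 UMIs per cell) and a set with deep cells (the other 6 mice, 28056 to 36341); the labels name 2 versions of the capture kit without saying which mouse had which.

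L-type cells came from 10 of the 11 mice and 23 of the 33 libraries. Old 4 gave 26 of them, Old 6 gave 14, Young 4 gave 12 and Young 5 gave 11, Old 1 and Old 5 gave 6 each, the remaining 4 mice 1 to 3 each, and Young 2 none. The shallow mice thus held 69 of the 83 cells. Across all cells 226 barcodes occurred in more than 1 library, but no barcode was shared by a pair of L-type cells and 2 of the 83 had a barcode that also occurred elsewhere. The Old 1 distal library stood apart: its 5 L-type cells carried 182122 of the 312216 distal L-type UMIs, with Gcg at 736 CPM (counts per 1000000 UMIs), far under the other distal libraries, and Muc2, the main goblet mucin, at 5002 CPM, of whose 911 UMIs 907 lay in 1 cell that held 2 hormone UMIs among 58029. In this library 2 further cells had similar counts, with 50298 and 52771 UMIs in all. They held 821 and 737 UMIs of Pyy, 259 and 232 of Insl5, and 114 and 106 of Ghrl. Whether they are separate cells was not tested, and they are counted as 2. The edgeR fits on L-type cells described below did not include this library, apart from some alternatives. Distal levels are given by library or also without it.

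The promoter sequences of the 3 defining hormones and of Nts, which encodes neurotensin and parts the compartments below, are shown because the values turn on these genes. They come from the RefSeq table of build GRCm38.p6, run 5′ to 3′ on the minus strand that carries all 4 genes, and leave out any base inside a GENCODE transcript. Capitals mark CANNTG, the E-box form bound by factors such as Neurod1, and TTTAT on either strand (ATAAA when read on the other), a core of sites for Cdx and posterior Hox proteins. The windows lie at chr2:62483654-62483903 (Gcg), chr11:102107833-102108082 (Pyy), chr4:103026843-103026978 (Insl5) and chr10:102490487-102490668 (Nts).
Gcg: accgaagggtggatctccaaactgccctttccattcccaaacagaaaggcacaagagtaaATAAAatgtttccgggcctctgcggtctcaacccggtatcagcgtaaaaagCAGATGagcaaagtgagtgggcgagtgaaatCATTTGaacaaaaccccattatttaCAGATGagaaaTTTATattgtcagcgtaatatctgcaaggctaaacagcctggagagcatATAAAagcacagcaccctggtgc
Pyy: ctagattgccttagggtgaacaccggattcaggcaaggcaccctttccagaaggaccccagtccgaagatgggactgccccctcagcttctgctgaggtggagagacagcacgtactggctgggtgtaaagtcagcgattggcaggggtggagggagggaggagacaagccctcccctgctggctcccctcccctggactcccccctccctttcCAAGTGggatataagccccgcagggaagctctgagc
Insl5: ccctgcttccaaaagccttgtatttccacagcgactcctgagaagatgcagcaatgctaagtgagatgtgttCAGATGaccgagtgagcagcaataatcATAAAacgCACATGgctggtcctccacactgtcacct
Nts: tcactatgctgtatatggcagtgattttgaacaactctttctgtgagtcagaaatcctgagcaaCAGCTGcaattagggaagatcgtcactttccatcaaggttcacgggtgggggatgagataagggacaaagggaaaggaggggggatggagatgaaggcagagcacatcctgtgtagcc
In the full 250 bases before the start, Gcg held 3 E-boxes and 3 AT-rich cores, Insl5 2 and 3, Pyy 1 and 0, and Nts 1 and 0. For Gcg and for Insl5, 1 of the AT-rich cores lay inside TATAAA, the form of a TATA box. Of 32851 windows of the same length, 66.2% held an E-box, 37.3% an AT-rich core and 7.59% TATAAA. A match in these windows is thus a description and not a site. The 114 bases left out for Insl5 and the 68 left out for Nts lie inside a longer annotated transcript.

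The members were chosen on their hormone and endocrine gene UMIs, so those values describe the rule and were not tested. The hormone UMIs exceeded the Tph1 and Tac1 UMIs by a median of 553, and 73 of the 83 cells had no UMI of either serotonin-cell gene. The 3 hormones took a median of 10.1% of a cell's UMIs, from 0.0026% to 34.9%. The 9 cells just inside the rule, with exactly 4 endocrine genes, had a median of 470 hormone UMIs. The 23 cells just outside it, with 3 endocrine genes, had a median of 2, and 5 of them held at least 10. The smallest margin among the members was 1 UMI, in 2 cells, and 11 members had a margin below 10. Of the non-endocrine cells, 23 held at least 10 hormone UMIs and 7 held at least 100. Median depth was 5473 UMIs in L-type cells, 7997 in non-endocrine cells and 4324.5 in other endocrine cells, and mitochondrial genes took a median of 3.64% of UMIs in L-type and 5.47% in non-endocrine cells.

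Several genes that the rule did not use are known from L cells. Etv1, a transcription factor of L cells, was found in 78.3% of L-type cells and 0.124% of non-endocrine cells. The calcium-binding protein gene Scgn was found in 90.4% against 0.405%, and the lipid receptor gene Gpr119 in 45.8% against 0.0256%. Of the rule genes, Pcsk1 was found in 55.4% of L-type and 51.0% of other endocrine cells, and 87.0% of all Pcsk1 UMIs in the series lay in non-endocrine cells. A group of 8 members went against the label: they held at least 10 UMIs of Sst, the hormone of D cells, all 8 held Pyy and the D-cell factor gene Hhex, 7 held Iapp and 1 held Gcg. Of the other 75 cells, 66 held Gcg, 62 Etv1, 2 Hhex and none Iapp. The 8 cells came from 5 mice, 3 in the cecum, 4 in the proximal colon and 1 in the distal colon. A further member, in the cecum of Old 5, held 1978 UMIs of Gip, the hormone of K cells, among 20141 UMIs, with 4 of Gcg and none of Pyy.

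The defining hormones occurred in several combinations, counted from 1 UMI upward. Of non-endocrine cells 6.14% held a Gcg UMI and 6.26% a Pyy UMI, and single UMIs in L-type cells can have the same source. Gcg, Pyy and Insl5 occurred together in 31 of the 83 cells, Gcg with Pyy in 26, Pyy alone in 12, Gcg alone in 10, Pyy with Insl5 in 3 and Insl5 alone in 1. The triple combination was found in 3 of 25 cecal, 6 of 29 proximal and 22 of 29 distal cells. Pyy was the most abundant of the 3 in 53 cells and Gcg in 28. By compartment Pyy led in 15 of 25 cecal, 14 of 29 proximal and 24 of 29 distal cells, and Gcg in 10, 15 and 3.

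**Figure D1:**
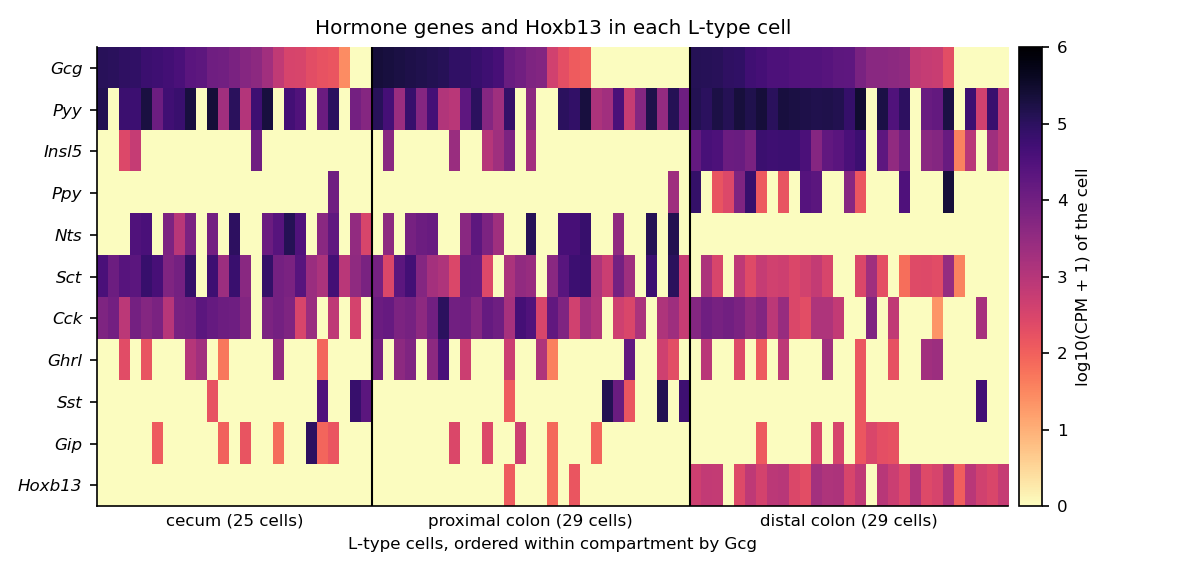
Hormone genes and Hoxb13 in each of the 83 L-type cells. Each column is 1 cell, grouped by compartment and ordered by Gcg, and the colour gives log10(CPM + 1). Insl5 and Hoxb13 fill the distal block, where 26 and 27 of 29 cells held a UMI, and Nts is empty there.

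Insl5 marked the distal cells. A UMI of Insl5 was found in 3 of 25 cecal cells, 6 of 29 proximal cells and 26 of 29 distal cells. The distal cells came from 7 libraries, 6 of which had a positive cell. After every cell was thinned to 1500 UMIs the counts were 2, 6 and 25, without Old 1 they were 3 of 25, 6 of 28 and 21 of 24, and without Old 4 they were 2 of 21, 4 of 18 and 16 of 18. In non-endocrine cells, whose Insl5 UMIs can come from RNA free in the suspension, 0.613% of cells held a UMI at a median depth of 7997 UMIs. Summed over the L-type cells of a library, and for libraries with at least 3 of them, Insl5 stood at 114 CPM in the cecum of Old 4, 4312 in that of Old 6 and 0 in those of Young 4 and Young 5. In the proximal colon it stood at 438 (Old 4), 589 (Old 6), 174 (Young 4) and 2861 CPM (Young 5). In the distal colon it stood at 3591 (Old 1), 15410 (Old 4), 25880 (Old 5), 35450 (Old 6) and 35980 CPM (Young 5). The distal libraries lay above all proximal ones, and Old 1 lay below the highest cecal one. These are values of a gene the rule used and carry no test.

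Nts showed the opposite pattern. Neurotensin, a peptide that acts on gut motility and secretion, had a UMI in 15 of 25 cecal and 15 of 29 proximal cells and in 0 of 29 distal cells, which allows a share of cells with a UMI of up to 10.3% (counting error only; the cells came from 7 libraries). The counts were the same after thinning to 1500 UMIs. Non-endocrine cells held an Nts UMI in 2.07% of cases. In CPM over the L-type cells of a library, the cecum gave 29890 (Old 4), 2884 (Old 6), 18680 (Young 4) and 4667 (Young 5). The proximal colon gave 15970 (Old 4), 33090 (Old 6), 12550 (Young 4) and 868 (Young 5), and all 5 distal libraries gave 0. Against a floor of 3 counts over the 312216 UMIs of the distal cells, the pooled level was at least 2443-fold higher in the proximal colon and at least 770-fold higher in the cecum. Without the distal library of Old 1 these limits were 1018-fold and 321-fold. Old 3, whose 2 proximal cells held 3169 of the 5279 proximal Nts UMIs, also moved the first, to 1348-fold without that library. All these limits pool cells over mice and are not limits for each mouse. In Young 5 the proximal level was 868 CPM and the distal L-type cells held only 9393 UMIs. Some cells held both genes: Nts was in 4 of the 6 proximal cells with Insl5, beside 15 of all 29. It was in 1 of the 3 cecal cells with Insl5, beside 15 of all 25. At least 10 UMIs of each gene were found in 1 of the 83 cells, a proximal one.

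Genes outside the rule were tested on the summed UMIs of L-type cells with edgeR's quasi-likelihood test and the mouse as a block. With at least 5 L-type cells per library the test rested on the proximal and distal libraries of Old 4 and Old 6, with 1 residual degree of freedom, and no contrast with the cecum could be fitted. Of 605 genes 11 passed an adjusted p of 0.05 (1.82%), 7 higher (1.16%) and 4 lower (0.661%) in the distal colon, and 10 of them lay outside the rule. Nts was lower in the distal colon (log2 fold -8.77 ± 0.66 SE, adjusted p = 0.0122), a fitted value that depends on the prior count because the distal side is 0. Sct was lower (-5.39 ± 0.49, adjusted p = 0.0122), as was Ghrl (-4.94 ± 0.42, adjusted p = 0.0122). The genes higher in the distal colon included Dpep1 (3.65), Hoxb13 (3.59), Cldn14 (2.82), Wfdc2 (2.74) and Klf2 (2.41).

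The remaining comparisons used libraries with at least 3 L-type cells, a limit lowered after the counts of cells were known. They drew on 11 libraries of 4 mice (Old 4, Old 6, Young 4 and Young 5) with 5 residual degrees of freedom and 822 genes, and leave out the distal libraries of Old 1 and Old 5, whose mice had no other library that qualified. Between distal and proximal colon 34 genes passed (4.14%), 18 higher (2.19%) and 16 lower (1.95%). Between distal colon and cecum 48 passed (5.84%), 29 higher (3.53%) and 19 lower (2.31%). Between proximal colon and cecum none passed with edgeR or with DESeq2, while 52 genes had an unadjusted p below 0.05. Leaving out Old 4, the mouse with the most cells, left 3 calls outside the rule in each distal contrast in place of 32 and 45, with Wfdc2 among them in both. The folds of Nts (-7.87, adjusted p = 0.103, and -7.67, adjusted p = 0.0740) and Sct (-3.68, adjusted p = 0.152, and -4.56, adjusted p = 0.0592) then kept their direction but did not pass.

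**Figure D2:**
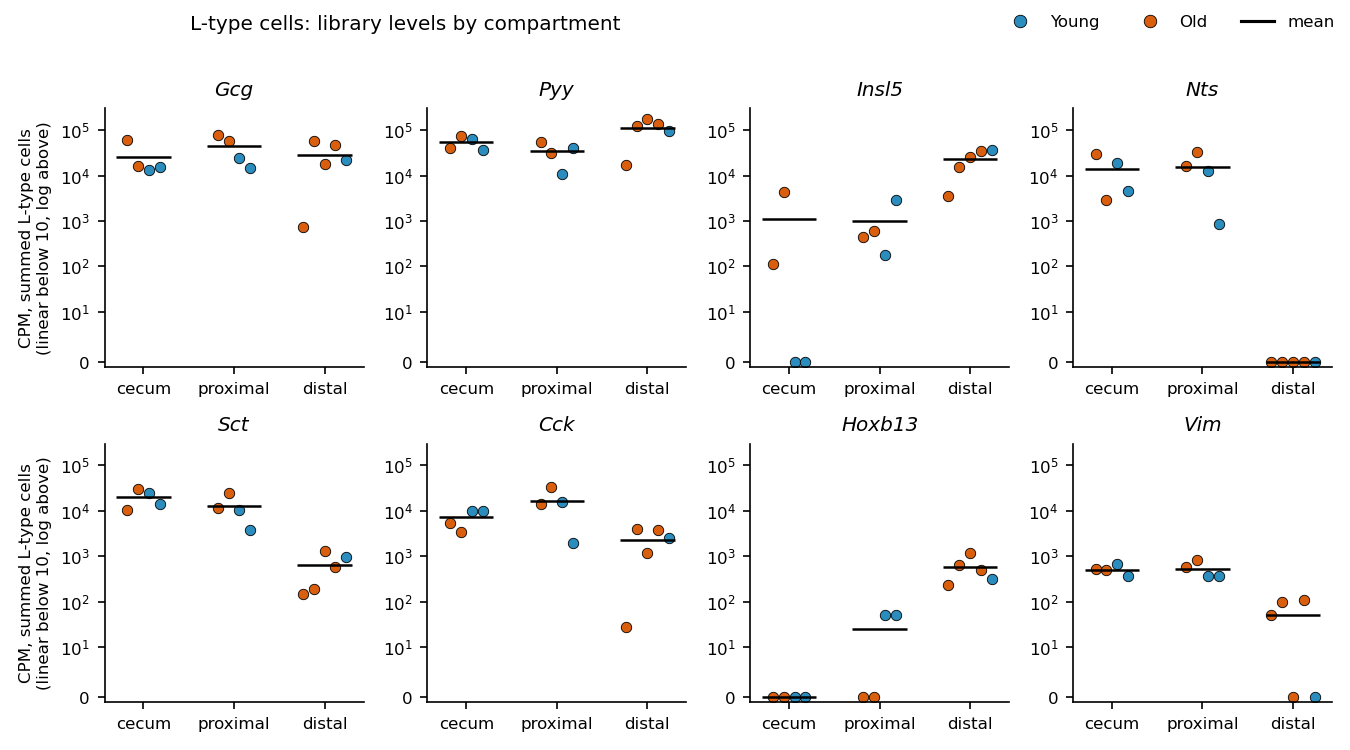
Levels of 8 genes over the L-type cells of each library with at least 3 such cells, in CPM, on an axis that is linear below 10 and logarithmic above. Points are the 13 libraries by compartment and bars are means. The 5 distal libraries sit at 0 for Nts and between 148 and 1309 CPM for Sct, under every cecal and proximal library.

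Secretin transcripts fell along the same axis. Sct, the hormone that stimulates bicarbonate secretion and is expressed in many enteroendocrine cells, stood at 10280 (Old 4), 29510 (Old 6), 24970 (Young 4) and 14290 CPM (Young 5) in cecal L-type cells. Proximal cells gave 11240, 25290, 10340 and 3730 CPM in the same mice. Distal cells gave 148 (Old 1), 193 (Old 4), 1309 (Old 5), 588 (Old 6) and 958 CPM (Young 5). No distal library overlapped the others. The log2 fold of distal against proximal colon was -4.28 ± 0.68 (adjusted p = 0.0033) and that against cecum -4.88 ± 0.69 (adjusted p = 0.0023). A share of 28.1% of non-endocrine cells held an Sct UMI, and 20 of 29 distal L-type cells did, or 8 of 29 after thinning.

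Cck and Ghrl varied more between libraries. Cck, the gallbladder and satiety hormone, averaged 7190 ± 3345 CPM (SD, n = 4) in the cecum, 16330 ± 13060 (n = 4) in the proximal colon and 2293 ± 1691 (n = 5) in the distal colon, or 2859 ± 1294 (n = 4) without Old 1. Its difference between distal and proximal cells did not pass (-1.93 ± 0.74, adjusted p = 0.207), nor did that against cecum (-0.98 ± 0.73, adjusted p = 0.499). Ghrl, the ghrelin gene, was at 1585, 10740, 894 and 6386 CPM in proximal cells of Old 4, Old 6, Young 4 and Young 5. Single cells carried these levels: 1 cell held 236 of the 237 Ghrl UMIs of Old 6, 1 held 35 of the 36 of Young 4, 1 held 120 of the 125 of Young 5 and 1 held 46 of the 76 of Old 4. The cell of Young 5 had 4 hormone UMIs, near the edge of the rule. Without these cells the 4 levels were 706 (Old 4), 63.0 (Old 6), 29.1 (Young 4) and 396 CPM (Young 5). Ghrl was at 24.1, 241 and 0 CPM in distal cells of Old 4, Old 6 and Young 5, and the fold between distal and proximal cells passed (-4.61 ± 1.04, adjusted p = 0.0203). The distal cells of Old 1 and Old 5, which the fit left out, held 1213 and 963 CPM, within the proximal range. Few cells carried these levels too. In Old 5, 1 cell held 20 of the 25 Ghrl UMIs (304 CPM without it). In Old 1, the 2 similar cells described above held 114 and 106 of the 221. With every library that held an L-type cell the fold was -2.09 (adjusted p = 0.337). The D-cell peptide gene Iapp also passed between distal and proximal cells (-2.82 ± 0.67, adjusted p = 0.0384), though not with DESeq2 (-2.36, adjusted p = 0.81). All 7 L-type cells that held an Iapp UMI are among the 8 cells with Sst described above.

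Gcg and Pyy chose the cells, and their levels are given without a test. Gcg showed no order by compartment and averaged 25980 ± 22400 CPM in cecal (n = 4), 43720 ± 29790 in proximal (n = 4) and 28970 ± 23130 in distal L-type cells (n = 5; 36030 ± 19530 without Old 1). Pyy averaged 54380 ± 18130, 34430 ± 18710 and 110900 ± 60100 CPM. The distal Pyy values were 17350 (Old 1), 125000 (Old 4), 177200 (Old 5), 140000 (Old 6) and 95070 CPM (Young 5), all but the first above every cecal and proximal library. Without Old 1 the distal mean was 134300 ± 34160 CPM (n = 4).

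Ppy, the pancreatic polypeptide gene that lies 5356 bases from Pyy on chromosome 11, was found in 15 L-type cells. Of these 13 were distal, from 5 mice, all 15 also held Pyy and 13 held Insl5. At least 10 Ppy UMIs were found in 8 of the 13 distal cells, and the cell of Young 4 held 1. Distal libraries gave 2701 (Old 1), 18040 (Old 4), 88880 (Old 5), 7057 (Old 6) and 0 CPM (Young 5). Cecal and proximal libraries gave 0 except the cecum of Young 5 at 2549 and the proximal colon of Old 6 at 499. A single distal cell of Old 5, with 2307 Ppy and 1805 Pyy UMIs, held 59.2% of all Ppy UMIs of L-type cells. The difference between distal and proximal cells did not pass (5.37 ± 1.71, adjusted p = 0.110), but passed without Young 5 (5.92, adjusted p = 0.0105).

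The same hormones were then measured without the cell rule, as the UMIs of all cells of a library, where fewer L-type cells and less RNA per cell cannot be told apart. L-type cells held 94.8% of all Insl5 UMIs, 92.3% of Pyy, 90.0% of Nts, 89.4% of Gcg and 61.2% of Cck, but only 15.4% of Sct, 78.7% of which lay in non-endocrine cells. The fit took 25 libraries of at least 100 cells from 9 mice, without the distal library of Old 1, the only large one of its mouse, and 12675 genes, of which 44.0% passed between distal and proximal colon, 57.6% between distal colon and cecum and 26.3% between proximal colon and cecum. Calls are thus common here. The hormone list includes the 3 hormones of the rule but not Ppy, which is given below. Of its 14 measured genes, 2 were higher and 5 lower in distal than in proximal colon. In distal colon against cecum 3 were higher and 3 lower, and in proximal colon against cecum 3 were higher and 1 lower. The median log2 fold of the list was -0.25, 0.11 and 0.22, and that of all genes -0.01, -0.02 and -0.01.

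Insl5 ranged from 0 to 8.44 CPM (median 0.906) in 8 cecal libraries, from 0 to 10.4 (median 0.953) in 8 proximal and from 0.337 to 252 (median 33.1) in 10 distal ones. It was higher in distal than in proximal colon (log2 fold 5.05 ± 0.51, adjusted p = 2.69e-07) and than in cecum (5.37 ± 0.51, adjusted p = 5.03e-08), and did not pass between the latter (0.32 ± 0.64, adjusted p = 0.774). In the deep mice alone neither distal difference passed (1.36, adjusted p = 0.128, against proximal colon and 0.60, adjusted p = 0.46, against cecum). Of the distal libraries in that fit only that of Old 3 held an L-type cell, 1 with no Insl5 UMI. Nts had medians of 6.98, 38.4 and 1.75 CPM in cecum, proximal and distal colon and was lower in the distal colon than in the proximal colon (-4.62 ± 0.66, adjusted p = 2.30e-05) and the cecum (-3.60 ± 0.70, adjusted p = 0.000259). Sct, with medians of 453, 170 and 25 CPM, fell at each step: proximal colon against cecum -1.73 ± 0.34 (adjusted p = 0.000838) and distal against proximal colon -2.22 ± 0.35 (adjusted p = 4.75e-05).

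Ppy was higher in distal than in proximal colon (5.79 ± 0.69, adjusted p = 1.96e-06). Its medians were 0.321, 0.429 and 0.727 CPM, with a distal maximum of 438. Cck was lower in distal than in proximal colon (-1.17 ± 0.41, adjusted p = 0.0268). Gcg did not pass in any of the 3 contrasts (log2 folds -0.07, -0.18 and -0.11, with SEs of 0.87 to 1.06), and its library values ran from 0 to 660 CPM. Pyy did not pass either (2.13 ± 1.07 between distal and proximal colon, adjusted p = 0.117). In the deep mice alone Pyy was lower in distal colon than in cecum (-8.17, adjusted p = 0.0066), against 0.55 over all mice. Few L-type cells lay in the libraries of that fit. Of the distal ones only that of Old 3 held any, 1 cell with no Pyy UMI. In the cecum 1 cell of Young 3 held 2895 Pyy UMIs and 1 cell of Old 2 held 97.

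**Figure D3:**
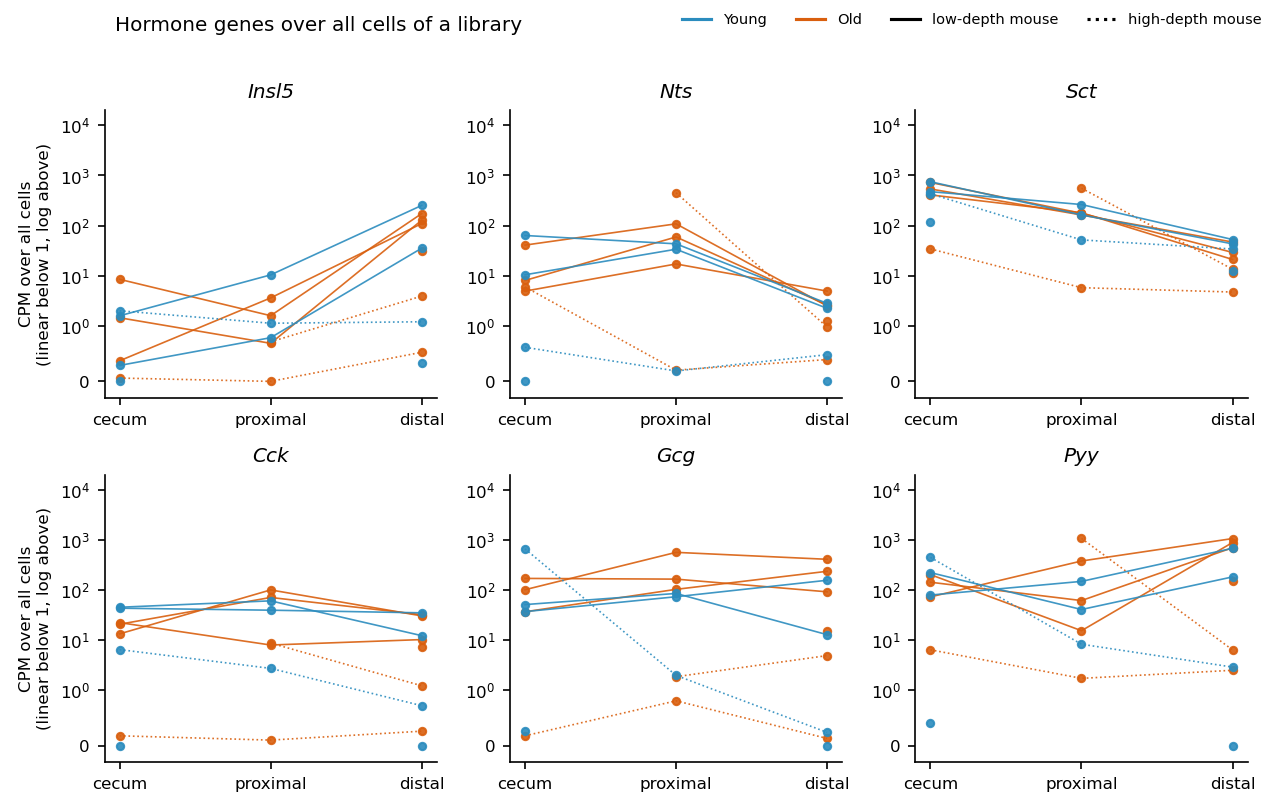
Hormone genes over all cells of each library with at least 100 cells, in CPM, on an axis that is linear below 1 and logarithmic above. Lines join the libraries of 1 mouse, solid for the shallow and dotted for the deep mice. Insl5 is highest and Nts and Sct lowest in the distal colon, while Gcg crosses without order.

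Among Hox genes, which mark position along the body axis, Hoxb13 was highest and some anterior Hoxb genes were lowest in the distal colon in both L-type and non-endocrine cells. Hoxb13, which marks the distal end of the body axis, was found in 0 of 25 cecal, 3 of 29 proximal and 27 of 29 distal L-type cells. Of the 26 distal cells with Insl5, 25 held Hoxb13. Over all compartments 36.1% of L-type and 25.1% of non-endocrine cells held a Hoxb13 UMI. In the distal colon 39 of 45 other endocrine cells did. Pooled over the libraries with at least 3 L-type cells, levels were 0, 23.1 and 408 CPM in L-type cells and 5.69, 11.1 and 357 CPM in non-endocrine cells. Without Old 1 the distal L-type level was 683 CPM. The fold passed between distal and proximal L-type cells (2.96 ± 0.59, adjusted p = 0.0203) and between distal colon and cecum (3.39 ± 0.56, adjusted p = 0.0066). Pooled over all L-type cells, the distal level was at least 38.9-fold higher than the cecal one, where no UMI was found. The floor was 3 counts over the cecal L-type UMIs, and the limit was 63.8-fold without the distal library of Old 1. Such limits pool cells over mice and are not limits for each mouse. Hoxb6, Hoxb7 and Hoxb8, members of the same cluster that mark more anterior positions, went the other way: 80.1, 102 and 138 CPM in cecal, 108, 108 and 185 CPM in proximal and 0, 3.37 and 6.75 CPM in distal L-type cells (0, 8.75 and 8.75 without Old 1). Non-endocrine cells held 37.9, 61.2 and 40.2 CPM of these genes in the cecum and 1.63, 2.12 and 1.46 CPM in the distal colon. Other Hox genes did not run alike: Hoxa7 stood at 146, 92.4 and 67.5 CPM from cecum to distal colon in L-type cells and at 60.6, 41.7 and 62.8 in non-endocrine cells. Hoxd13 had no UMI in the L-type cells of these libraries and 13.2 CPM in distal non-endocrine cells. Of these genes Hoxb13 alone is given with a test. Cdx2, an intestinal identity factor gene, was lower in distal than in cecal L-type cells (-1.65 ± 0.43, adjusted p = 0.0352), but not with DESeq2 (-2.37, adjusted p = 0.0972) or without Old 4, Old 6 or Young 5 (-1.15 to -1.82).

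Most of the genes that differed by compartment in L-type cells differed in the same direction over whole libraries. This held for 22 of 32 genes outside the rule between distal and proximal colon and for 41 of 45 between distal colon and cecum. Of the 12675 genes of whole libraries, 44.0% and 57.6% passed in either direction. By direction, 20.6% were higher and 23.4% lower in the first contrast, and 26.8% and 30.8% in the second. The L-type fit took 822 genes. Whole libraries include the L-type cells, so the agreement is partly built in. L-type cells held 90.0% of all Nts UMIs and 0.536% of all Wfdc2 UMIs. The shared calls included the secreted protein gene Wfdc2 (3.03 and 2.29).

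Fabp5, which encodes a fatty acid-binding protein, was the gene that passed in the opposite direction over whole libraries, in both contrasts. A further 9 and 3 of the called genes did not pass there, among them Ghrl, Iapp, Pcsk1n and Dpep1 in the first and Vim, Pcsk1n and Fcgbp in the second. In distal L-type cells it stood at 220 (Old 1), 892 (Old 4), 655 (Old 5), 1497 (Old 6) and 1384 CPM (Young 5). Cecal L-type cells gave 0, 408, 365 and 180 CPM and proximal ones 146, 0, 398 and 51.1 CPM in Old 4, Old 6, Young 4 and Young 5. Fabp5 rose in distal L-type cells (2.91 ± 0.49 against proximal colon, adjusted p = 0.0040, and 2.54 ± 0.47 against cecum, adjusted p = 0.0066). Over whole libraries it fell (-0.89 ± 0.29, adjusted p = 0.0170, and -1.86 ± 0.28, adjusted p = 1.31e-05). Without Old 4 the L-type folds were 3.25 (adjusted p = 0.0650) and 2.52 (adjusted p = 0.0592), and the difference between the L-type and the whole-library change was not tested.

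Vim, which encodes the filament protein vimentin, was lower in distal L-type cells. It stood at 511, 495, 660 and 359 CPM in the cecum, at 584, 816, 373 and 358 CPM in the proximal colon and at 49.4, 96.5, 0, 107 and 0 CPM in the distal colon, with no overlap. Distal cells were lower than proximal (-2.02 ± 0.41, adjusted p = 0.0146) and cecal cells (-1.97 ± 0.42, adjusted p = 0.0115). Without Old 4 the folds were -2.11 (adjusted p = 0.228) and -2.07 (adjusted p = 0.137), and without Old 6 -1.90 (adjusted p = 0.0806) and -2.13 (adjusted p = 0.0511). Non-endocrine cells averaged 1.01 CPM. Vim belongs to a list of stromal, endothelial, glial and neuronal markers, of which 4 of 7 had a UMI in L-type cells. The list summed to 359 CPM (range over mice 75.5 to 504) against 4.35 in non-endocrine cells. Of this sum in L-type cells Vim alone made up 345 CPM. A Vim UMI was found in 53.0% of L-type, 28.7% of other endocrine and 0.860% of non-endocrine cells. The list's members Col1a1, Dcn and S100b had no UMI in L-type cells. The part of such cells in the difference was not tested.

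Of 6 granule genes measured outside the rule, Pcsk1n was higher in distal than in proximal L-type cells (list median 1.19, median of all genes -0.06, 2.19% of all genes higher). Against cecum Pam and Pcsk1n were higher (list median 1.11, median of all genes -0.10, 3.53% of all genes higher). Pcsk1n, an inhibitor of Pcsk1, changed by 2.00 ± 0.40 (adjusted p = 0.0146) and 1.71 ± 0.40 (adjusted p = 0.0189), and Pam, which amidates peptide hormones, by 2.25 ± 0.58 against cecum (adjusted p = 0.0314). Of 15 measured genes of the dissociation and heat shock list, 4 immediate early genes rose against proximal colon (Btg2, Atf3, Jun and Ier2; list median 0.52) and 11 did not pass. Against cecum 6 rose (these with Junb and Fos; median 0.97) and 9 did not pass. Of 7 goblet genes, none passed against proximal colon and Fcgbp and Muc2 rose against cecum (2.70 ± 0.53, adjusted p = 0.0081, and 2.51 ± 0.54, adjusted p = 0.0115). Without Young 5 the folds against cecum were 0.76 for Pam (adjusted p = 0.422), 1.15 for Pcsk1n (adjusted p = 0.118), 0.99 for Fcgbp (adjusted p = 0.526) and 1.55 for Muc2 (adjusted p = 0.214). None of the 3 nutrient receptor, 2 hormone receptor or 6 transcription factor genes measured passed in any contrast. The part of dissociation or of goblet RNA in the other differences was not tested.

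Against the other classes of cells the values are a description, since this contrast chose the members. They are means over the 6 mice with at least 5 L-type cells, Old 1 among them. Pyy stood at 64610 ± 29320 CPM (SD) in L-type cells and 20.7 in non-endocrine cells, Gcg at 30420 ± 23960 and 12.7, and Insl5 at 7837 ± 4636 and 1.03. Chga and Chgb, granule proteins common to endocrine cells, were lower in L-type cells (932 and 1239 CPM) than in other endocrine cells (8802 and 16700 CPM) in all 6 mice. The granule genes Scgn (527 CPM) and Scg2 (284) went the other way, with 69.3 and 4.00 CPM in other endocrine cells.

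Among transcription factors, Etv1 averaged 379 ± 166 CPM in L-type cells, 26.1 in other endocrine and 0.186 in non-endocrine cells. Isl1 (306 and 138 CPM in L-type and other endocrine cells) and Pax6 (91.9 and 15.8) are rule genes. Neurod1, also of the rule, was at 270 CPM against 410.

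Some receptors that let L cells sense the lumen and the blood had most of their UMIs in L-type cells. Of 24 nutrient receptor genes 4, and of 31 hormone and transmitter receptor genes 5, were higher than in non-endocrine cells in all 6 mice. No UMI in L-type cells was found for 7 genes of each list. The share of all genes higher in all 6 mice is not given, so these counts do not show that receptors stand out. Gpr119, a receptor for lipid amides, averaged 137 ± 104 CPM in L-type cells, 3.96 in other endocrine and 0.036 in non-endocrine cells. Ffar1, a receptor for long-chain fatty acids, averaged 91.7 ± 41.5 CPM, and Gpbar1, the bile acid receptor, 68.6 ± 66.9, with 0.066 and 0.012 in non-endocrine cells. L-type cells held 92.6% of all Gpbar1 UMIs, 89.9% of Gpr119 and 79.2% of Ffar1. Of the receptors for circulating signals, Agtr1a (angiotensin II) averaged 79.3 ± 39.9 CPM, Avpr1b (vasopressin) 92.9 ± 52.9 and Sstr5 (somatostatin) 51.4 ± 25.7. These genes were higher than in non-endocrine cells in all 6 mice except Gpbar1, in 5. By contrast Ffar2, a short-chain fatty acid receptor gene, was at 191 CPM in L-type and 250 in other endocrine cells. Ffar4, another fatty acid receptor gene, was at 48.4 CPM against 49.1 in non-endocrine cells, which held 99.4% of its UMIs.

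**Figure D4:**
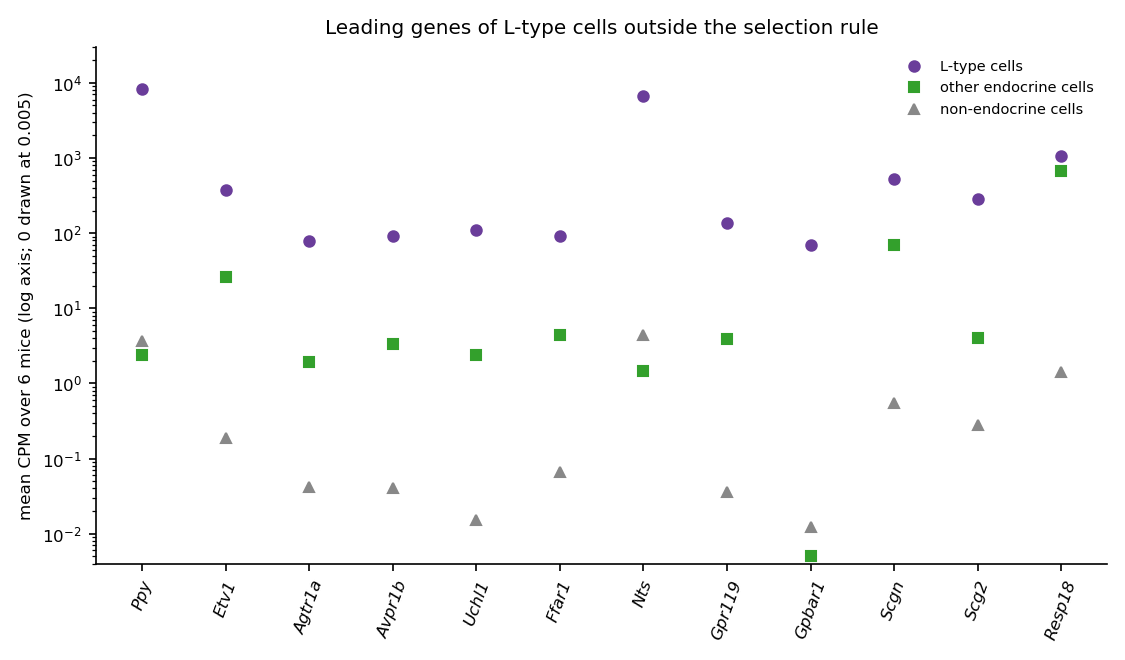
The first 12 of the 25 genes outside the rule with the largest median fold of L-type over non-endocrine cells, among genes with at least 50 CPM in L-type cells. Points are mean CPM over 6 mice on a logarithmic axis, for L-type, other endocrine and non-endocrine cells, with 0 drawn at 0.005. Ppy and Etv1 lead the order, and Agtr1a, Avpr1b, Ffar1, Gpr119 and Gpbar1 follow among the first 9.

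The summed goblet, colonocyte, stem cell and cycling lists were lower in L-type than in non-endocrine cells, as means over 6 mice; these differences were not tested. The summed goblet list stood at 20466 CPM in L-type cells (range over mice 5056 to 42362) and 27616 in non-endocrine cells. The colonocyte list stood at 6490 against 16959 CPM, the stem cell list at 428 against 745, and the cycling list at 280 against 605. The tuft list had a mean of 250 CPM (range over mice 9.34 to 809) against 177, but its median over libraries was lower in L-type cells in each compartment (14.6, 25.5 and 26.7 against 147, 169 and 113 CPM from cecum to distal colon). Of 10 immune genes 2 had a UMI in L-type cells (mean over mice 56.1 against 30.7 CPM; median over libraries 57.5, 0 and 22.0 against 29.0, 22.9 and 33.7), and the T cell, B cell and macrophage genes Cd3e, Cd79a and Lyz2 had none. The enterochromaffin list, which holds 5 rule genes, was at 2565 CPM in L-type and 30110 in other endocrine cells.

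The frequency of L-type cells did not differ detectably between compartments. They were 25 of 9971 cecal cells (0.251%), 29 of 7976 proximal cells (0.364%) and 29 of 5815 distal cells (0.499%). Within mice the share of all cells differed by 0.043 ± 0.122 percentage points between distal and proximal colon (SE, 8 mice; exact sign-flip test, p = 0.75, adjusted p = 1), higher in 4 and lower in 3. The difference was 0.093 ± 0.155 points between distal colon and cecum (8 mice, exact p = 0.547) and 0.0024 ± 0.117 between proximal colon and cecum (7 mice, exact p = 1). As a share of endocrine cells, L-type cells were 21.0% in the cecum, 31.5% in the proximal and 39.2% in the distal colon. In the 5 mice with enough endocrine cells the distal share exceeded the cecal one by 21.1 ± 9.1 points and was higher in 4 of 5 (exact p = 0.125, adjusted p = 0.188), where the smallest p that 5 mice allow is 0.0625.

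**Figure D5:**
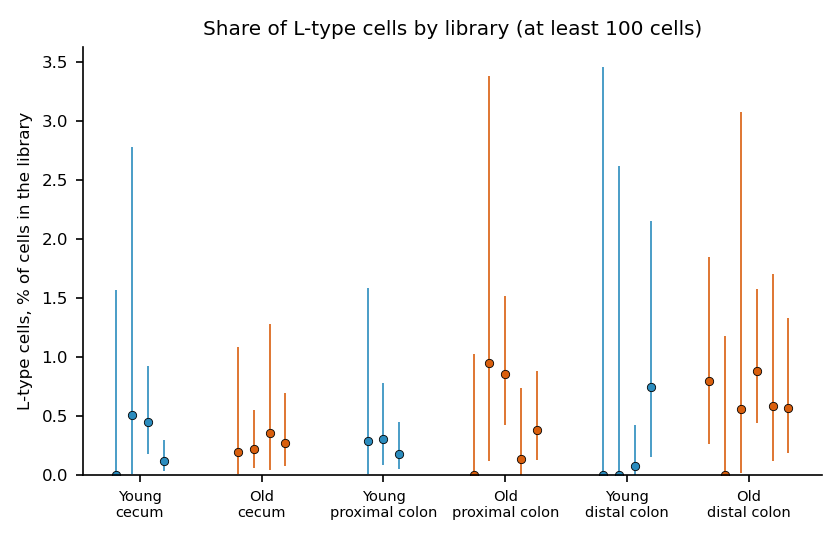
L-type cells as a percentage of all cells in each library with at least 100 cells, by compartment and age, with 95% exact binomial intervals that cover counting error only. The old distal libraries run from 0 to 0.884% and the young distal ones from 0 to 0.743%.

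Age was compared over mice. With compartments weighted equally the share was 0.295 ± 0.044% (SD) in 3 young and 0.370 ± 0.240% in 4 old mice with all 3 libraries of at least 100 cells (exact permutation test, two-sided p = 0.6; the smallest possible p is 0.0286). In the distal colon alone the share was 0.205 ± 0.360% in 4 young and 0.566 ± 0.308% in 6 old mice (exact permutation p = 0.148, adjusted p = 0.443). This rested on 4 L-type cells among 2063 young and 25 among 3752 old cells. In the cecum the difference was -0.0075 points and in the proximal colon 0.207.

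Genes were compared by age in the 4 mice with at least 10 L-type cells, Old 4 and Old 6 against Young 4 and Young 5, all shallow. Of 1604 genes 1 passed (0.0623%), with 206 at an unadjusted p below 0.05. It was Fcgbp, a goblet mucin-binding protein gene, lower in old mice (39.4 ± 10.4 against 432 ± 88.5 CPM, n = 2 each, log2 fold -2.87 ± 0.38, adjusted p = 0.0340). The 6 other goblet genes measured did not pass, and the list's median was -2.78, among them Muc2 (-2.78) and Tff3 (-2.71). The part of goblet RNA in the call was not tested, and Fcgbp did not pass with the distal share of a mouse's cells as a covariate (-2.38, adjusted p = 0.0592). No hormone passed: Nts changed by 0.27 ± 0.75 (adjusted p = 0.911), Sct by -0.11 ± 0.65 (adjusted p = 0.962) and Cck by 0.19 ± 0.55 (adjusted p = 0.915). The rule genes Gcg (1.72 ± 0.67), Pyy (0.71 ± 0.71) and Insl5 (1.05 ± 0.60) are given as values. Distal cells were 42.3% of L-type cells in Old 4, 35.7% in Old 6, 8.33% in Young 4 and 27.3% in Young 5. Age and compartment mix thus cannot be told apart in these folds. The number of calls changed with the settings, as given under the processing below.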

How the data were processed

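The authors deposited raw UMI counts per gene and cell barcode for each of the 33 libraries, 21852 genes in all. They were made with Cell Ranger and the build mm10, per the submitters' processing notes, and the version is not given in the sources used here. No deposited cell had fewer than 1559 UMIs or 1001 genes, so cells were filtered before deposit by a rule not given in the sources used here. Doublets were not removed here; leaving out 5 members with over 2 times the median UMIs of their library's L-type cells was an alternative.

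The members and all gene lists were chosen with earlier results of these data known. CPM here are counts divided by the UMIs of the same cells. Counts summed over L-type cells or over all cells of a library were tested with edgeR 4.0.16 (filterByExpr, TMM, prior count 2, Benjamini-Hochberg over all genes fitted), with the mouse as a block because libraries of 1 mouse share its number; Young 1 and Old 1 share only a number. DESeq2 1.42.0 was an alternative. Shares were tested over mice with exact sign-flip and permutation tests. The planned minimum of 5 L-type cells per library left 4 libraries, so 3 was added. The scripts were tested on simulated data. Named were the rule genes, the called genes with the 10 largest folds in each direction, called or abundant list members, and the 25 leading genes against non-endocrine cells. No deposited annotation of cell types was used. Some genes that the rule names are not reported here.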

Additional observations from a re-analysis of the deposited data

Results flagged for a closer look

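Single libraries lay far from the rest of their group in 12 of 55 groups of 4 to 10 libraries examined. The threshold is set to mark about 1 in 20 groups of normally distributed values. Its rate for values spread like these was not measured. Over all cells, Gcg stood at 659.6 CPM in the young cecum library of Young 3 (the next was 50.9), Nts at 63.29 CPM in that of Young 4 (next 10.4), Gcg at 155.7 CPM and Insl5 at 252.1 CPM in the distal library of Young 5 (next 12.8 and 35.3). In old mice Insl5 stood at 8.441 CPM in the cecum of Old 6 (next 1.44), Nts at 40.7 CPM in the cecum of Old 4 (next 8.02) and Nts at 450.9 CPM in the proximal colon of Old 3 (next 108).

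The L-type share of all cells was 0.7426% in the distal library of Young 5, where the next young library had 0.0756%, and 0 in the distal library of Old 2, where the next old library had 0.559%. Within L-type cells, Gcg was at 59550 CPM in the cecum of Old 4 (next 15850), Insl5 at 4312 CPM in the cecum of Old 6 (next 114) and Insl5 at 2861 CPM in the proximal colon of Young 5 (next 589). Few cells carried some of these values. The only L-type cell of the Young 3 cecum library held 4305 Gcg UMIs, and the 2 of the Old 3 proximal library held 3169 Nts UMIs. The Insl5 UMIs of L-type cells lay in 1 cell in the cecum of Old 6 (148 UMIs). In the proximal colon of Young 5 they also lay in 1 cell (56 UMIs). The cause was not tested for any of the flagged values.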

How the results depend on the processing

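No frequency difference passed its test under any setting tried, and several changed sign. The distal minus proximal share of all cells became -0.0559 points with at least 3 endocrine genes, -0.0902 with no minimum number of cells and -0.225 in the deep mice, and ran from -0.0323 to 0.104 when 1 mouse was left out. The distal minus cecal share became -0.0582 with no minimum and -0.234 in the deep mice. The proximal minus cecal share became -0.208 in the deep mice and ran from -0.103 to 0.0400 when 1 mouse was left out. As shares of endocrine cells the 3 differences became -3.51, -2.76 and -0.394 points with no minimum number of cells. The age difference became -0.198 in the deep mice, where 1 young mouse stood against 1 old mouse (0.122 for 3 against 3 with no minimum number of cells), and -0.0075 in the cecum alone, and ran from -0.018 to 0.177 over left-out mice, negative only without Old 4.

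Over whole libraries, the count of hormone genes called between distal and proximal colon fell from 7 to 3 in the deep mice. That between proximal colon and cecum went from 4 to 2 with DESeq2, 1 with no replicate block and 2 in the deep mice, and ran from 2 to 5 over left-out mice. Gcg between distal and proximal colon became 0.19 in the deep mice and ran from -0.49 to 0.35 over left-out mice. Between distal colon and cecum Gcg became 0.95 in the shallow mice and ran from -0.96 to 0.96 over left-out mice. Between proximal colon and cecum Gcg became 0.015 with DESeq2 and 0.97 in the shallow mice and ran from -0.65 to 0.93 over left-out mice. Pyy became -4.68 (distal minus proximal) and -8.17 (distal minus cecum) in the deep mice, which held few L-type cells. With no replicate block it became 0.66 (proximal minus cecum). In the deep mice Sst became -0.46 (distal minus cecum) and -0.70 (proximal minus cecum), and between proximal colon and cecum Insl5 became -0.76, Nts -1.83 and Cck -0.64. Ppy between proximal colon and cecum became 0.51 with DESeq2 and ran from -0.75 to 0.71 over left-out mice, and Insl5 ran from -0.49 to 1.51. No other named hormone value changed sign.

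In L-type cells, the 10 calls outside the rule between distal and proximal colon at 5 cells per library became 28 without a filter on low counts, 24 with no replicate block, 32 without possible doublets, 43 with every library that held an L-type cell and 32 at 3 cells per library. At 3 cells the 32 calls became 16 with DESeq2 and 13 with no replicate block, and ran from 3 to 26 over left-out mice. The 45 calls against cecum became 89 with every library and ran from 3 to 36. The 0 calls between proximal colon and cecum became 7 without a filter, 1 with at least 5 endocrine genes and 1 without possible doublets, and ran from 0 to 5. Of the genes named by compartment in L-type cells only Cck against cecum changed sign (0.29 with at least 5 endocrine genes). The 1 call by age became 14 with DESeq2, 51 without a filter, 12 with at least 5 cells per mouse, 25 with the distal share as a covariate and 12 with a replicate block at 5 cells per mouse, and ran from 31 to 93 over left-out mice. With at least 5 cells per mouse Nts became -0.24 and Cck -0.21, with a replicate block at that minimum -0.49 and -0.66, and Sct became 1.48 with the distal share as a covariate. Over left-out mice Nts ran from -0.54 to 2.07, Sct from -0.90 to 0.54 and Cck from -0.25 to 0.74. The cause of these changes was not tested. Leaving out a mouse at 5 cells per library and a replicate block at 10 cells per mouse could not be fitted. Depth limits the low genes: 83 cells gave 804989 UMIs.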

Other observations

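Beyond the hormones and receptors, several genes with neuronal or secretory roles were far more abundant in L-type than in non-endocrine cells, as means over 6 mice with no test because this contrast chose the cells. Uchl1, a ubiquitin hydrolase of neurons and endocrine cells, averaged 109 ± 69.7 CPM (SD) in L-type cells, 2.41 in other endocrine cells and 0.0153 in non-endocrine cells. Qpct, which forms pyroglutamate at the end of peptides, averaged 120 ± 125, 8.88 and 0.0874 CPM. Pappa2, a protease of insulin-like growth factor-binding proteins, averaged 77.7 ± 37.9, 11.5 and 0.0641 CPM. Gfra3, a receptor of the GDNF family, averaged 392 ± 203, 150 and 2.81 CPM, and Kcnk3, a background potassium channel, 75.5 ± 62.7, 16.7 and 0.243 CPM. Gucy2c, the receptor for guanylin, averaged 249 ± 83.7, 132 and 87.7 CPM and was higher in L-type cells than in both other classes in all 6 mice.

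Neurog3, the factor that starts endocrine differentiation, was found in 3 L-type cells, all distal, and 32 of their 36 UMIs lay in 1 cell of Old 6. That cell held 8 hormone UMIs among 4942, near the edge of the rule. Neurog3 was found in 18.3% of other endocrine cells and 0.439% of non-endocrine cells.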
